A study of Homo sapiens with 2 samples.

Results

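The genes described here code for 10 heterogeneous nuclear ribonucleoproteins (hnRNPs): HNRNPA1, HNRNPA2B1, HNRNPC, HNRNPD, HNRNPH1, HNRNPK, HNRNPL, HNRNPLL, HNRNPM and HNRNPU. They were taken as a named set, and every listed transcript whose identifier, read without its version, belongs to 1 of them in GENCODE v44 was included. This gave 200 of the 206696 listed transcripts, and 10 of the 59026 genes to which transcripts could be matched. The data are a single group of 2 RNA-seq libraries, replicate 1 and replicate 2, of total RNA depleted of rRNA from untreated cells of the HEK293 Flp-In T-Rex line, and no second condition was sequenced. HEK293 is an established human embryonic kidney line. This derivative carries a genomic site for inserting a tetracycline-controlled transgene, and the labels of these libraries name no transgene and no treatment. Whether the libraries came from separate cultures was not stated, so the spread between them may be technical.

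hnRNPs bind nascent transcripts in the nucleus, package them, and influence which exons are joined, how RNAs are exported and how long they last. Several of them adjust their own amount through their transcripts: when the protein is plentiful, splicing shifts towards transcripts that keep an intron or that carry a stop codon ahead of an exon junction. Transcripts of the latter kind are degraded by nonsense-mediated decay, and transcripts with a kept intron often stay in the nucleus.

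In GRCh38, as annotated by GENCODE v44, the genes lie on different chromosomes, apart from HNRNPL and HNRNPM. On the plus strand lie HNRNPA1 (ENSG00000135486.19) at chr12:54280193-54287088 and HNRNPM (ENSG00000099783.13) at chr19:8444767-8489114. On the minus strand lie HNRNPA2B1 (ENSG00000122566.22) at chr7:26171151-26201529, HNRNPC (ENSG00000092199.19) at chr14:21209136-21269494, HNRNPD (ENSG00000138668.20) at chr4:82352498-82374503 and HNRNPH1 (ENSG00000169045.19) at chr5:179614178-179634784. The minus strand also holds HNRNPK (ENSG00000165119.22) at chr9:83968083-83980631, HNRNPL (ENSG00000104824.18) at chr19:38836370-38852347, HNRNPLL (ENSG00000143889.16) at chr2:38561969-38603586 and HNRNPU (ENSG00000153187.21) at chr1:244840638-244864560.

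The libraries held 25158962 and 27143860 estimated counts, of which the 10 genes took 0.361% in replicate 1 and 0.322% in replicate 2. An estimated count is the number of reads assigned to a transcript when reads that match several transcripts are shared out between them. Normalised counts are estimated counts divided by a size factor of the library. Of the genes whose mean reached 10 normalised counts, 5.76% differed by more than 2-fold between the libraries, and the median log2 difference was -0.06. Markers of the line were present at mean per-length levels (counts per transcript length, scaled to 1000000 in each library) of 307 for VIM, 22.3 for NEFL, 4.20 for INA and 1.94 for LHX1, whereas PAX2 and NEFM reached only 0.69 and 0.28. Of 6 markers of other cell types, PTPRC, CD3E, ALB and CDH5 were listed at 0 in both libraries. COL1A1 had 156 and 291 normalised counts, and HBB 179 and 182, all of them on its retained-intron transcript.

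Levels were compared between genes as per-length levels, that is, estimated counts of each transcript divided by its length in GENCODE v44, scaled to 1000000 in each library and summed per gene. HNRNPA1, which shuttles between nucleus and cytoplasm and often represses splice sites, had the highest level, with 412 in replicate 1 and 367 in replicate 2 (390 ± 32.0, SD, n = 2). HNRNPC, whose tetramers bind uridine tracts of nascent RNA, had 266 and 265 (266 ± 0.88). HNRNPK, a protein with KH domains that binds cytidine-rich sequence, had 284 and 245 (264 ± 27.9). HNRNPC and HNRNPK changed places between the libraries, and their difference of 1.19 was far below the sum of their SDs, 28.8.

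HNRNPL, which binds CA repeats, followed with levels of 219 and 229 (224 ± 7.41), and HNRNPH1, which binds runs of guanosine, with 200.1 and 197 (199 ± 2.04). HNRNPU, a large protein also known as scaffold attachment factor A that binds both RNA and chromatin, had 163 and 133 (148 ± 21.4). HNRNPA2B1, the gene of the A2 and B1 proteins, had 115 and 85.6 (100.3 ± 20.8). The 7 genes down to HNRNPA2B1 all lay above 85 in both libraries, and each was above 96% of the 15537 protein-coding genes detected in both libraries.

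The remaining genes were lower. HNRNPD, also called AUF1, a protein of AU-rich elements and mRNA decay, had levels of 63.4 and 56.6 (60.01 ± 4.79). HNRNPM, a splicing regulator of GU-rich motifs, had 31.7 and 41.6 (36.6 ± 6.99). HNRNPLL, the paralogue of HNRNPL known for regulating CD45 splicing in T cells, had 12.05 and 11.90 (11.97 ± 0.10). HNRNPLL was thus the lowest in both libraries, 3.06-fold below HNRNPM and above 61.6% of the detected protein-coding genes.

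**Figure D1:**
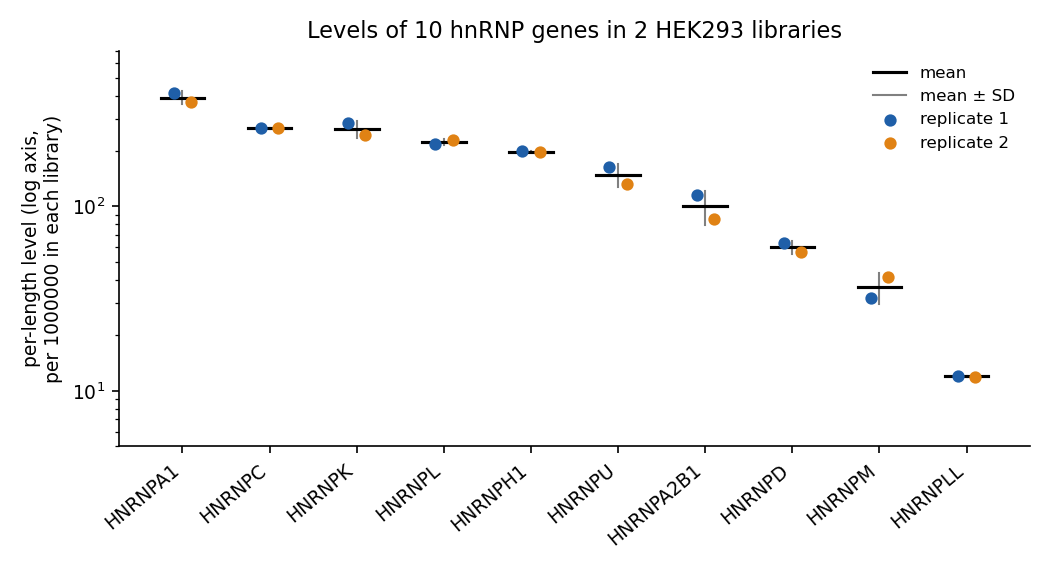
Per-length level (vertical log axis, counts per length scaled to 1000000 in each library) of the 10 hnRNP genes, ordered by mean; points are the libraries, the black line is the mean and the grey line the mean ± SD (n = 2). HNRNPA1 is highest at 390 and HNRNPLL lowest at 11.97, and HNRNPC and HNRNPK cannot be ordered.

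A pair of genes was called different in level when their order did not change between the libraries and their means lay further apart than both SDs added together. Of the 45 pairs, 44 were called, and of the 9 neighbouring pairs all but HNRNPC and HNRNPK. The call was not made over pairs of other genes, so these counts have no background beside them. The order depended on the length and the transcripts used. HNRNPA1 was at rank 4, below HNRNPK, HNRNPC and HNRNPL, when its gene total was divided by the length of the MANE Select transcript (the single reference transcript per gene agreed by RefSeq and Ensembl), because its counts lay mostly on shorter transcripts, and 39 pairs were then called. With that length HNRNPA2B1 also had a higher mean than HNRNPH1 and HNRNPU, and 6 pairs in all stood in another order. With protein-coding transcripts alone, 4 pairs did: HNRNPA2B1 was again above both genes, HNRNPU above HNRNPH1, and HNRNPM above HNRNPD. HNRNPLL stayed lowest with each length and transcript choice tried. In bulk libraries, more RNA per cell and more cells expressing a gene cannot be told apart.

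In normalised counts, a measure of each gene on its own, 8 of the 10 genes were lower in replicate 2, where over all genes 55.2% were lower. HNRNPA2B1 had the widest gap, with 12486 normalised counts in replicate 1 and 9165 in replicate 2 (log2 difference -0.45). HNRNPL and HNRNPM went the other way, HNRNPM from 1616 to 2061 (0.35) and HNRNPL from 10097 to 10340 (0.03). None of the 10 totals was past 2-fold, against the 5.76% of all genes, and the median difference of the 10 was -0.24. These differences are between 2 libraries of the same cells and set the spread against which the values below are to be read.

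Single transcripts were far less stable than gene totals. Of the 121 transcripts of the 10 genes that averaged 10 or more normalised counts, 40 (33.1%) were past 2-fold between the libraries, close to the 30.6% of all such transcripts. Neither library had any count for 58 of the 200 transcripts, and 29 had counts in only 1 library. HNRNPC-226, which codes for the C1 protein, had 701 normalised counts in replicate 1 and 2970 in replicate 2 (log2 difference 2.08), the widest gap among the transcripts with a mean of at least 5% of a gene and counts in both libraries. HNRNPC as a gene differed by only -0.21, so the gap lay between its transcripts.

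GENCODE assigns each transcript a class: protein-coding, nonsense-mediated decay, retained intron, or a coding sequence that is not defined. Of the 200 transcripts, 106 were protein-coding, 28 of the decay class, 58 of the retained-intron class and 8 without a defined coding sequence. The class is read from the transcript model, so a share of counts in the retained-intron class is a share of reads assigned to such models and not a measured rate of intron retention. Summed over the 10 genes, the protein-coding class made up 81.5% of counts in the first library and 80.0% in the second (80.8% ± 1.12, SD, n = 2). Retained-intron transcripts held 10.3% and 10.7% (10.5% ± 0.34), and decay transcripts 8.14% and 9.19% (8.67% ± 0.74). Divided by length, the decay class was at 11.8% ± 0.51 and the protein-coding class was at 76.2% ± 0.83. Among the 4641 other genes with at least 1000 normalised counts in both libraries, the make-up most like this sum was that of CSNK2A1, TMEM106C, ARID1A, AKAP8L and BABAM1, with half-sums of absolute share differences of 1.42 to 2.63 percentage points.

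The 10 genes were far from alike in make-up. In HNRNPC the protein-coding class held 99.0% of counts in replicate 1 and 98.9% in replicate 2. The class also held over 90% in both libraries in HNRNPK (97.0% and 93.0%), HNRNPLL (94.0% and 94.8%) and HNRNPM (93.3% and 93.3%). HNRNPA1 had 91.3% and 89.9%, HNRNPA2B1 87.9% and 84.6%, and HNRNPL 80.1% and 80.8%. Below a wide gap of 28.4 percentage points came HNRNPD with 48.9% and 55.0%, HNRNPU with 49.6% and 52.1%, and HNRNPH1 with 44.9% and 30.2%. Between 3 genes and the rest the split was thus plain in each library, while HNRNPD and HNRNPU did not differ beyond their spread.

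**Figure D2:**
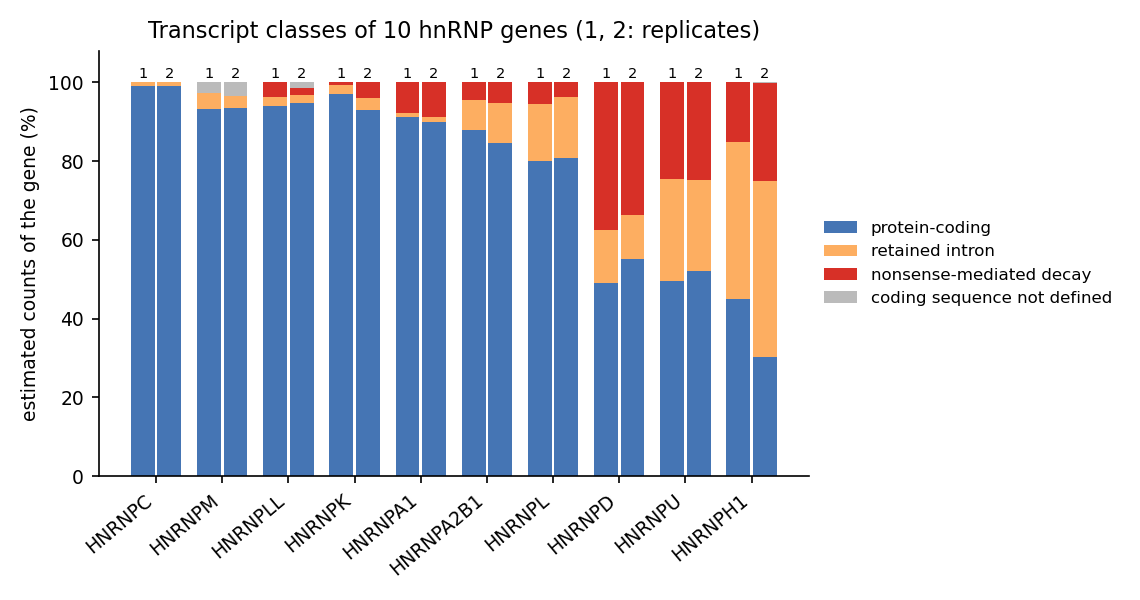
Share of each gene's estimated counts (vertical axis, percent) on protein-coding, retained-intron, nonsense-mediated-decay and undefined-coding transcripts, with 1 bar for each replicate. HNRNPC is almost wholly protein-coding, and in HNRNPD, HNRNPU and HNRNPH1 the protein-coding class holds 30.2% to 55.0% of the counts.

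HNRNPH1 had the largest retained-intron share, 39.9% of its counts in replicate 1 (exact 95% interval 38.7 to 41.1) and 44.7% in replicate 2 (43.5 to 46.0). HNRNPU followed with 25.8% and 23.1%, HNRNPL with 14.3% and 15.5%, and HNRNPD with 13.5% and 11.4%. These 4 of the 10 genes had at least 10% in both libraries, where 26.9% of the 6956 genes with such a transcript and at least 100 normalised counts in both libraries did. Per count, each of the 4 exceeded the next by more than the sum of their SDs. Divided by length, HNRNPL (16.4% ± 0.85) was above HNRNPU (13.2% ± 0.27), and HNRNPD was at 3.79% ± 0.41. By that measure 3 of the 10 genes reached 10% in both libraries, where 43.6% of the 6956 genes did. The intervals cover counting error only, and shared-out reads are not independent observations.

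HNRNPA2B1 had 7.62% and 10.1% in the retained-intron class. The other 5 genes lay between 1.02% and 3.96% in either library, with HNRNPC and HNRNPA1 lowest at means of 1.04% and 1.17%. The median of the 10 genes was 6.19%, beside 5.01% over the 6956 genes, and 5 of the 10 were above that median. Divided by length, 3 of the 10 were above the median of all genes, which was then 10.5%. HNRNPH1 was above 95.1% of all those genes per count and above 94.1% per length, whereas HNRNPD, at the 73.8th percentile per count, was at the 23.0th per length, because its retained-intron counts lay on a single transcript of 4597 bases.

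The decay class was largest in HNRNPD, with 37.5% and 33.6% of its counts. HNRNPU had 24.6% and 24.8%, and HNRNPH1 15.2% and 24.95%. These 3 of the 10 genes reached 10% in both libraries, where 30.5% of the 5174 genes with a decay transcript and at least 100 normalised counts did. Per count, HNRNPD exceeded HNRNPU beyond the spread, and HNRNPU and HNRNPH1 could not be ordered. Divided by length, the shares were 44.5% ± 3.07 in HNRNPD, 40.9% ± 1.80 in HNRNPU and 24.7% ± 5.64 in HNRNPH1. HNRNPD and HNRNPU were then within their spread, and HNRNPU was above HNRNPH1 beyond it. By that measure 4 of the 10 genes, HNRNPA2B1 added, reached 10% in both libraries, where 36.3% of the 5174 genes did.

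HNRNPA1 had decay shares of 7.69% and 8.75%, HNRNPA2B1 4.49% and 5.25%, and HNRNPL 5.59% and 3.67%. HNRNPK had 0.67% and 3.92%, and HNRNPLL 3.69% and 1.77%. In HNRNPC and HNRNPM the only decay transcript, HNRNPC-231 and HNRNPM-214, was listed at 0 in both libraries, and 3 counts, the limit that a 0 allows, would be 0.0195% and 0.0198% of HNRNPC and 0.196% and 0.135% of HNRNPM. The median of the 10 genes, 4.75%, was close to the 4.68% of all such genes, and HNRNPD lay above 88.5% of those genes.

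**Figure D3:**
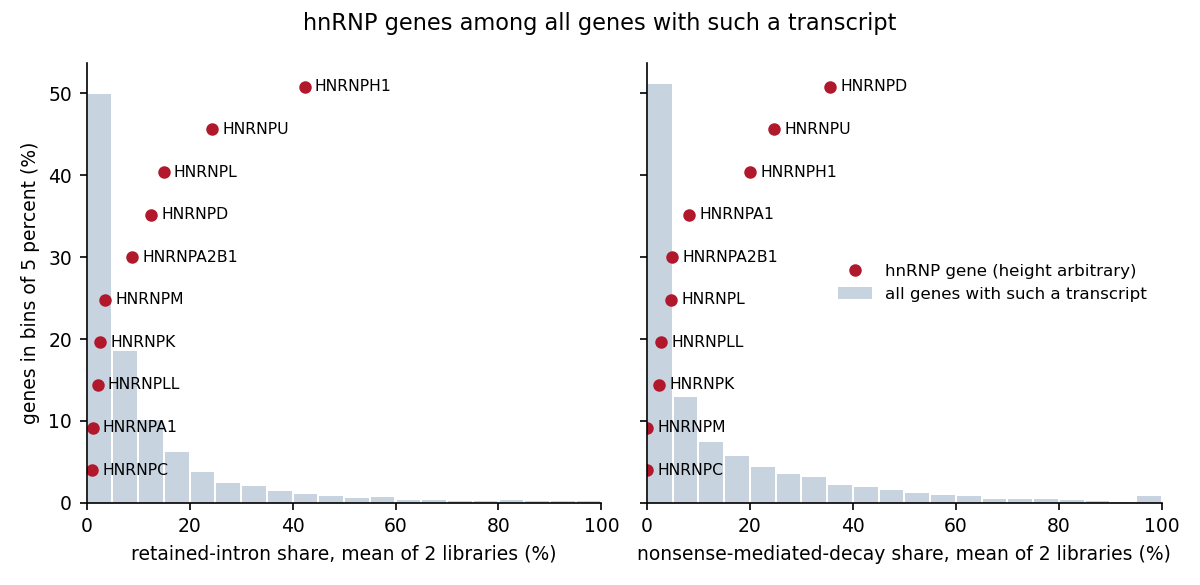
Distribution over all genes with such a transcript (bars, percent of genes in bins of 5 percent) of the retained-intron share (left) and the nonsense-mediated-decay share (right), means of both libraries, with the 10 hnRNP genes as points at arbitrary heights. HNRNPH1, at 42.3%, lies far out on the left panel and HNRNPD, at 35.6%, on the right panel, and most of the other genes sit in the lowest bins.

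The decay transcripts of the 10 genes fell into kinds that differ in where the annotated stop codon lies. In HNRNPA1, HNRNPA2B1 and HNRNPD nearly all decay counts, at least 89.8% in each library, were on a single transcript that uses the same stop codon as MANE Select and has 2 exons after it. HNRNPD-211 of this kind was the leading transcript of its gene, with 35.5% and 31.5% of HNRNPD counts. Its model has an exon of 107 bases that MANE Select lacks. The start of its coding sequence is missing from the model, so the upstream part is not known. HNRNPA1-205 had 7.34% and 7.85% of HNRNPA1, and HNRNPA2B1-203 4.49% and 5.25% of HNRNPA2B1.

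The last intron of the HNRNPA2B1 MANE Select model, intron 10, is 156 bases long and outside the coding part. Transcripts in which it lies unspliced inside an exon held 93.8% of HNRNPA2B1 counts in replicate 1 and 93.6% in replicate 2. Most of these were on HNRNPA2B1-202, a protein-coding transcript with 86.9% and 84.3% of the gene, whose version in the tables differs from that in GENCODE v44. The decay transcript HNRNPA2B1-203 does not hold this intron.

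In HNRNPH1, HNRNPL, HNRNPLL and HNRNPU, decay transcripts carried an exon that is absent from MANE Select and holds the annotated stop codon. In HNRNPH1, HNRNPL and HNRNPLL the exon lies between exons of MANE Select, and exons of that kind are often called poison exons. The HNRNPU exon is different, since it lies downstream of the last MANE Select intron as part of another 3′ end. They are printed below from their first base to the stop codon, in the direction of transcription, because they are the part of each transcript that ends the reading frame. The stop codon is in capitals, and the coordinates (GRCh38, GENCODE v44, all on the minus strand) are those of the printed stretch.
HNRNPH1, chr5:179621951-179621976: cgttggtaacggaaagcgacctgTAA
HNRNPL, chr19:38841624-38841682: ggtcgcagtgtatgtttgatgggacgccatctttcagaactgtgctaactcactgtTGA
HNRNPLL, chr2:38577956-38578002: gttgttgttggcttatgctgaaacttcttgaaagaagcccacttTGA
HNRNPU, chr1:244848809-244848856: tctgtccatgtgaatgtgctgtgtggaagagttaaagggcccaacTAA

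The HNRNPL exon is 70 bases long and is found in HNRNPL-202. Among transcripts that either hold it or join its neighbouring exons directly, it was in 6.54% of counts in replicate 1 (exact 95% interval 6.01 to 7.09) and 4.34% in replicate 2 (3.94 to 4.77). HNRNPLL has an exon of 83 bases in HNRNPLL-201, with 22.7 and 9.58 normalised counts, a small number in both libraries. The paralogues thus each had a decay transcript with a stop-bearing exon at a few percent of the gene.

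The HNRNPH1 exon of 134 bases was in 4.63% of counts in replicate 1 and 7.93% in replicate 2, on the same basis. Dividing by length gave a mean of 12.2% ± 1.85. Most HNRNPH1 decay counts were elsewhere, on HNRNPH1-238, a model of 831 bases with an incomplete start and a coding part of 39 codons. HNRNPH1-238 held 8.33% and 17.5% of HNRNPH1, and its version in the tables differs from GENCODE v44.

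The HNRNPU exon is 69 bases long, and HNRNPU-228, which holds it, codes for 804 residues before its stop. HNRNPU-228 took 5.46% of HNRNPU counts in replicate 1 and 12.1% in replicate 2. HNRNPU-224, a decay transcript with an incomplete start, had 16.4% and 9.87%, so the libraries differed in opposite directions for these transcripts while the whole decay share was 24.6% and 24.8%. Over the 10 genes, transcripts with the MANE Select stop held 33.0% and 29.0% of decay counts, those with a stop in an extra exon 21.2% and 28.7%, and other stops the rest.

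Retained-intron models were then compared intron by intron with the MANE Select transcript. An intron was counted as held when it lay whole inside an exon of a listed transcript, of whatever class. In HNRNPL, of 12 introns, intron 7 was held by transcripts with 14.1% of counts in replicate 1 and 13.2% in replicate 2, intron 12 by 1.88% and 1.57%, and the others by none. Intron 7 is 111 bases long, a multiple of 3, and is held by the retained-intron transcript HNRNPL-206 (7.78% and 8.80% of the gene) and by HNRNPL-215 (6.28% and 4.43%). GENCODE v44 classes HNRNPL-215 as protein-coding with 626 codons in place of the 589 of MANE Select, but the version counted differs from that model. The sequence of intron 7 is shown because the same stretch is an intron in 1 model and coding sequence in another, with the terminal splice-site dinucleotides in capitals.
HNRNPL intron 7, chr19:38840377-38840487, minus strand: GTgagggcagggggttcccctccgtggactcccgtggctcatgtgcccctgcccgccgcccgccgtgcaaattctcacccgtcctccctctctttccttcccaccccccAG

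In HNRNPH1, 9 of the 13 introns were held at some level. HNRNPH1-227, a model of 5564 bases, holds introns 5 and 9 to 13 together and had 9.31% of HNRNPH1 counts in replicate 1 and 11.4% in replicate 2. HNRNPH1-223 holds intron 3, of 206 bases, and had 9.90% and 11.9%. Intron 10, of 92 bases, was held by the largest share of all HNRNPH1 counts, 11.2% and 13.4%. Among counts on transcripts that span the intron, intron 11 was higher, with 14.8% and 21.0% beside 14.2% and 18.6% for intron 10. HNRNPH1-240, with 6.42% and 5.54% of the gene, is a retained-intron model of only 549 bases. Models that hold a whole MANE Select intron had 59.4% and 61.7% of the retained-intron counts of HNRNPH1, and the rest were on models that hold none whole.

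HNRNPU had 11 of 13 introns held, each by a small share. Intron 2, of 84 bases, was the highest with 4.66% in replicate 1 and 3.93% in replicate 2. Introns 5, 7, 8 and 10 to 13 each had 3.19% and 3.06%, all through HNRNPU-207. The leading retained-intron transcript, HNRNPU-231, with 9.14% and 10.5% of the gene, is 13084 bases long and holds no MANE Select intron whole. Models that hold a whole MANE Select intron had 45.3% and 50.4% of the retained-intron counts of HNRNPU. The HNRNPU retained-intron share was 24.4% ± 1.92 per count and 13.2% ± 0.27 per length.

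In HNRNPD the retained-intron counts were on HNRNPD-210, which holds introns 4, 6, 7 and 8 and had 13.5% and 11.4% of the gene. In HNRNPA2B1 the first intron, of 2839 bases, was held by 7.04% and 9.75%, mainly through HNRNPA2B1-204. In HNRNPC the only intron held was intron 8, of 99 bases, through HNRNPC-201, a protein-coding transcript of 288 codons with 11.0% and 9.21% of the gene. HNRNPM had no whole intron held in any listed transcript.

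**Figure D4:**
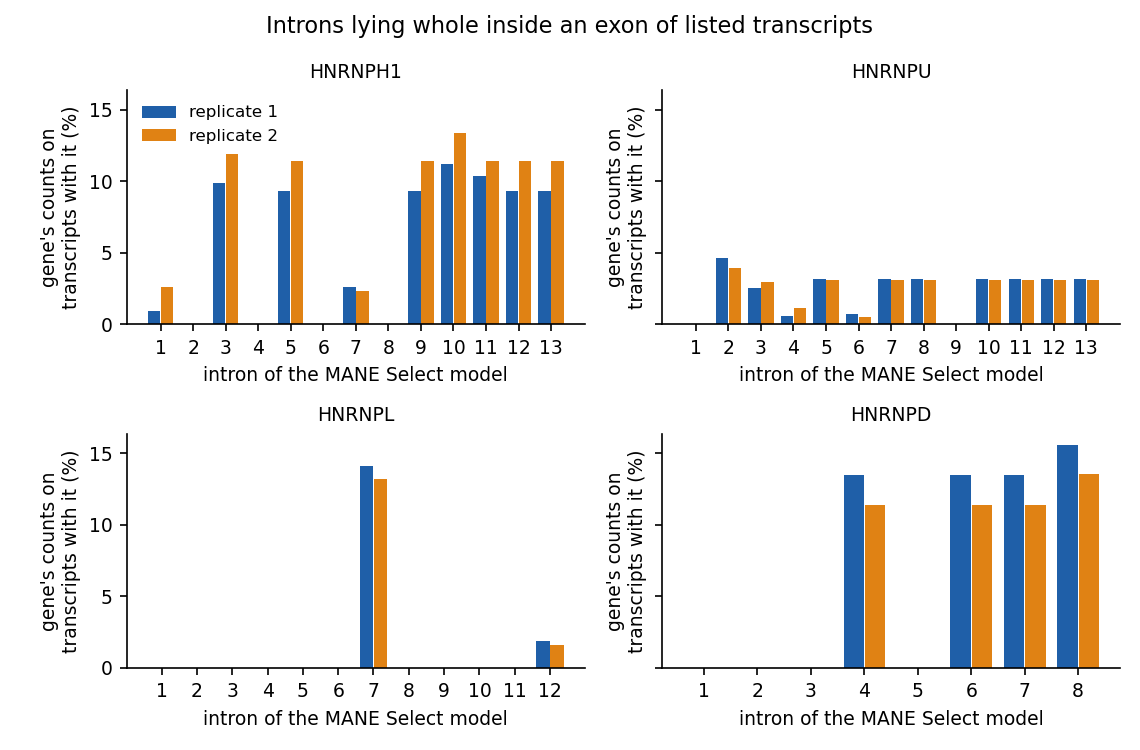
For HNRNPH1, HNRNPU, HNRNPL and HNRNPD, the share of the gene's estimated counts (vertical axis, percent) on transcripts in which each MANE Select intron (horizontal axis, numbered in the direction of transcription) lies whole inside an exon, for both replicates. In HNRNPL the share is almost all at intron 7, with 14.1% and 13.2%, while HNRNPH1 has several introns near 10%.

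The leading transcript, that with the most counts of its gene, was the same in both libraries in 9 of the 10 genes. Over all 11207 genes with several transcripts and at least 100 normalised counts in both libraries it was the same in 84.4%. The exception was HNRNPH1, led in replicate 1 by the protein-coding HNRNPH1-204, with 25.4% of the gene, and in replicate 2 by the decay transcript HNRNPH1-238, with 17.5%. HNRNPH1-204 had 12.9% in replicate 2 (log2 difference of normalised counts -1.32), and the MANE Select transcript HNRNPH1-203, which codes for the same protein of 449 residues, had 9.05% and 0. In normalised counts HNRNPH1 as a gene had 7025 and 5558 (log2 difference -0.34), and its protein-coding transcripts alone differed by -0.91, whereas the per-length level, which weights short models more, was 200.1 and 197.

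The concentration on the leading transcript ranged widely. HNRNPA2B1-202 held 86.9% and 84.3% of its gene, HNRNPM-201 80.3% and 77.7%, HNRNPL-210 70.4% and 72.4%, and HNRNPLL-204 67.9% and 65.3%. HNRNPC-204 held 56.96% and 46.8%, HNRNPK-202 53.5% and 46.6%, HNRNPA1-204 38.3% and 41.8%, and HNRNPU-201 31.0% and 35.7%. HNRNPD stood alone in being led in both libraries by a transcript outside the protein-coding class.

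The leading transcript was another than MANE Select in both libraries in 8 of the 10 genes, beside 35.0% of the 10293 genes with a listed MANE Select transcript. MANE Select led in HNRNPC (HNRNPC-204) and HNRNPM (HNRNPM-201). The MANE Select transcripts of HNRNPA2B1 (HNRNPA2B1-209) and HNRNPK (HNRNPK-204) were listed at 0 in both libraries, that of HNRNPLL (HNRNPLL-209) at 0 in replicate 1 only, and the median MANE Select share of the 10 genes was 7.53%. All 10 had a different version in the tables than in GENCODE v44, so the models the reads were assigned to may differ from those used here for lengths and exons. Transcripts with the same version held 67.6% of the counts of the 10 genes, from 13.4% in HNRNPA2B1 to 94.4% in HNRNPLL. The tables also list fewer transcripts than GENCODE v44 for some of the genes, 14 of 84 for HNRNPA1 and 9 of 49 for HNRNPA2B1.

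Several hnRNP genes make pairs of proteins that differ by a short coding stretch, and these stretches were followed through the transcripts, of whatever class, that include or skip them. The sequences of 4 of them are given so that each can be located, all in the direction of transcription and in lower case, since no part of them is marked.
HNRNPC, chr14:21230958-21230996, minus strand: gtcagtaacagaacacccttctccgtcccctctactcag
HNRNPK, chr9:83973902-83973973, minus strand: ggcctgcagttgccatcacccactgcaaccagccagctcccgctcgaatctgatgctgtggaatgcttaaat
HNRNPD, chr4:82371528-82371584, minus strand: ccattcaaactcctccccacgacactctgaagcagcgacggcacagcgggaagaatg
HNRNPA2B1, chr7:26197831-26197866, minus strand: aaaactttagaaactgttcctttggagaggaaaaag

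The HNRNPC stretch is 39 bases at the end of a coding exon and separates the C2 protein, of 306 residues, from C1, of 293. It was included in 18.6% of counts in replicate 1 (exact 95% interval 18.0 to 19.3) and 15.1% in replicate 2 (14.6 to 15.7). Thus C1-type transcripts held most counts in both libraries. The inclusion share was 16.9% ± 2.48 per count, 27.3% ± 5.997 per length and 36.7% ± 11.03 over same-version transcripts alone, which leave out HNRNPC-204, a transcript without the stretch.

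The HNRNPK exon of 72 bases was included in 85.1% of counts in replicate 1 and 76.2% in replicate 2 (80.7% ± 6.31). The skipping transcript was HNRNPK-206, of 440 codons, with 14.4% and 23.0% of the gene. The other main HNRNPK transcripts, HNRNPK-202 and HNRNPK-201 with 463 codons and HNRNPK-205 with 464, include the exon. HNRNPK-206 has another version in GENCODE v44, so no skipping transcript is left when same-version transcripts alone are used.

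HNRNPD has 2 alternative coding exons, whose combinations give the 4 AUF1 proteins. The exon of 57 bases was included in 42.4% of counts in replicate 1 and 30.4% in replicate 2 (36.4% ± 8.47), and the exon of 147 bases in 47.6% and 54.8% (51.2% ± 5.09). Nearly all skipping counts of the longer exon were on decay transcripts, HNRNPD-211 and HNRNPD-206. The protein-coding models that skip it, HNRNPD-203 and HNRNPD-204, had 0 and 17.2 estimated counts together, so among complete protein-coding models nearly all counts included the exon. The counted inclusion of the shorter exon rests mostly on MANE Select, HNRNPD-201 (14.4% and 12.1% of the gene), and over same-version transcripts it was 1.21%. HNRNPD-202, which lacks the shorter exon and codes for 336 residues, was the leading protein-coding transcript, with 19.6% and 29.4%. HNRNPD-208, of 260 codons and an incomplete model, had 14.9% and 12.6%. This same-version transcript has a coding exon of 57 bases before one of 169 bases. It was counted neither as including nor as skipping, because only transcripts with the exact MANE Select junctions were. The shares of the shorter exon, with the 1.21%, therefore leave its counts out.

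The HNRNPA1 exon of 156 bases extends the glycine-rich region and distinguishes the longer A1-B protein, of 372 residues, from A1-A, of 320. It was included in 40.9% of counts in replicate 1 and 33.0% in replicate 2 (37.0% ± 5.62), and in 18.0% ± 3.49 per length. Of the skipping counts, 2354 and 1833 estimated counts in replicate 1 and replicate 2 were on HNRNPA1-201, of 307 codons. Another 1092 and 1073 were on the decay transcript HNRNPA1-205, whose annotated coding sequence also has 320 codons. Among protein-coding transcripts, the A1-A protein of 320 residues, from HNRNPA1-203 and HNRNPA1-209, held 4.12% and 4.11% of counts, beside 20.4% and 13.7% for A1-B. In estimated counts these were 559 and 505 beside 2776 and 1680, and the counts of HNRNPA1-205 are in neither. All inclusion counts were on MANE Select, HNRNPA1-202 (18.7% and 12.3% of the gene), whose version differs. Most HNRNPA1 protein-coding counts were on other models that neither include the exon nor join its neighbours: HNRNPA1-204 of 267 codons, and HNRNPA1-208, of 231 codons, which had 14.8% and 18.7% of the gene. HNRNPA1-201 had 15.8% and 13.4%.

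The HNRNPA2B1 exon of 36 bases separates B1, which has it, from A2. By the GENCODE v44 models it was in 99.1% and 99.3% of counts, but only 5.98% of the counts compared were on same-version transcripts, and most were on HNRNPA2B1-202. The share of A2 and B1 therefore could not be read from these tables.

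**Figure D5:**
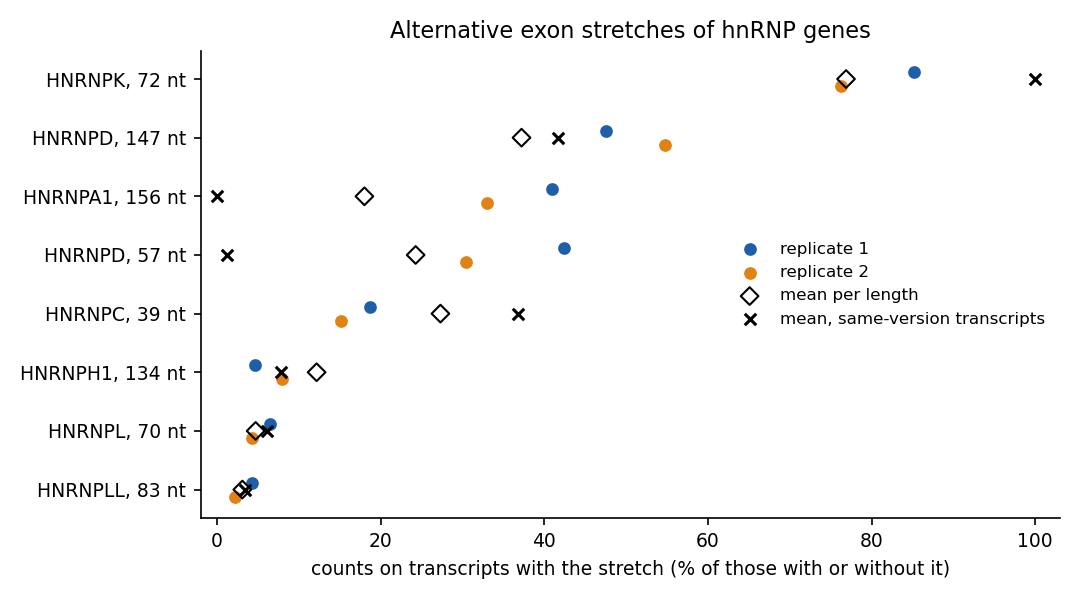
Share of counts (horizontal axis, percent of counts on transcripts that include or skip the stretch) that include 8 exon stretches, named by gene and length in bases; filled points are the replicates, diamonds the mean per length and crosses the mean over same-version transcripts. The HNRNPK exon is included in most counts and the C2 stretch of HNRNPC in few, and the diamonds and crosses lie far from the points for HNRNPA1 and the shorter HNRNPD exon. For HNRNPC the diamond (27.3%) and cross (36.7%) lie above both points, and the HNRNPK cross is at 100%. For the longer HNRNPD exon the diamond (37.2%) and cross (41.7%) lie below both points.

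In HNRNPH1 the protein of MANE Select, 449 residues, held 80.6% and 55.6% of protein-coding counts. In HNRNPL, HNRNPU and HNRNPLL most of these counts were on proteins shorter than the reference. HNRNPL-210 codes for 456 residues beside the 589 of MANE Select and held 87.9% and 89.6% of the protein-coding counts of HNRNPL. HNRNPU-201, of 744 codons, held 62.5% and 68.5% of those of HNRNPU, beside 15.4% and 21.6% for the 825 codons of MANE Select, HNRNPU-226. HNRNPLL-204, of 508 codons, held 72.2% and 68.9%, and HNRNPLL-206, of 275 codons, 11.7% and 11.4%. HNRNPLL-205 and HNRNPLL-209 traded places, with 65.2 normalised counts and 0 for the former and 0 and 60.7 for the latter. HNRNPM differed, in that the protein of MANE Select, 730 residues, held 86.1% and 83.3%, with HNRNPM-213 (352 codons, incomplete) at 9.98% and 3.40% of the gene.

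Reads of near-identical copies limit some of these values. Pseudogenes named for HNRNPA1 number 74 and had 1545 and 1330 normalised counts together, of which HNRNPA1P10 had 1386 and 1173, or 8.80% and 9.26% of the HNRNPA1 total. HNRNPCP2 had 3.26% and 3.58% of the HNRNPC total, and HNRNPKP4 1.54% and 2.01% of the HNRNPK total. Each of these is a processed copy, which resembles the spliced transcript, and how reads were divided between parent and copy was not tested.

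Overlapping genes matter in the same way, because the strand setting of the counting is not known. HNRNPA2B1 overlaps CBX3 and NFE2L3 on the opposite strand, and CBX3 had 4740 and 3281 normalised counts, 37.96% and 35.8% of HNRNPA2B1. HNRNPU overlaps COX20, with 438 and 394 normalised counts. The HNRNPK gene also contains MIR7-1, listed at 0 in both libraries, and the antisense HNRNPK-AS1, with 2.62 and 12.2.

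A list of 20 other genes of hnRNP and related RNA-binding proteins was set beside the 10. All were listed, with per-length levels from 8.32 (PTBP2) to 173 (RBMX) and a median of 36.1, beside 173 for the median of the 10. In replicate 2, 13 of the 20 had lower normalised counts, and none was past 2-fold. Of the 9 with a decay transcript and at least 100 normalised counts in both libraries, HNRNPDL (16.7% and 17.4%), HNRNPUL1 (17.4% and 18.6%), PTBP2 (27.5% and 27.3%) and RBMX (13.7% and 13.03%) reached 10% in both. HNRNPDL, the closest relative of HNRNPD in this list, thus also had a sizeable decay class, although at a smaller share than the 37.5% and 33.6% of HNRNPD. The lists were not tested against each other.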

How the data were processed

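RNA-seq libraries had been made with the TruSeq total RNA kit after rRNA depletion, per the labels. The authors' tables give per transcript an estimated count from RSEM and a deposited normalised signal, in which each library is scaled by a constant (size factors 0.945 and 1.08). The submitters' processing notes name FastQC, STAR 2.7.0d, RSEM 1.3.3 and R 3.6.3. The study's data statement names GRCh38.p13, Ensembl release 104, for read alignment. The strand setting and filters of these tables are not given in the sources used here. Tables restricted to METTL8 transcripts were not used. 1 sequence and 1 gene's values are not reported here.

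Of the 206696 transcript identifiers, 202217 were found in GENCODE v44 (GRCh38) when versions were ignored, 173547 of them with an equal version. Coding exons and sequences came from GENCODE v44. Shares are of estimated counts, with exact (Clopper-Pearson) 95% intervals, which cover counting error only, and a 0 was given the upper limit of 3 counts. A fold past 2 was called where the mean was at least 10 normalised counts. With 2 libraries the smallest two-sided sign-flip p is 0.5, so no p-values are given. The 2-fold call, the leading-transcript call and the intervals were tried on simulated counts with counting noise only, which leaves out other spread between libraries. Calls of order were not simulated.

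The genes, lists and tests were chosen with earlier results of these data known. Named transcripts were, per gene, the leading one, MANE Select, those with a mean share of at least 5% and the leading retained-intron and decay transcripts; any other transcript named was picked on seeing its value. The alternatives tried were each library alone, division by length, other scalings, filters and transcript sets. Python 3.11.15, pandas 2.3.3, SciPy 1.17.1 and Matplotlib 3.10.9 were used.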

Additional observations from a re-analysis of the deposited data

How the results depend on the processing

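No paired analysis was possible because there is only 1 group. With 2 libraries, leaving out either gives the value of the other, which says nothing on stability, and from a single library no order of levels can be called. Without replicate 1 and without replicate 2 the shares over the 10 genes were 80.0% and 81.5% (protein-coding), 9.19% and 8.14% (decay) and 10.7% and 10.3% (retained intron), the included shares were 15.1% to 18.6% for the C2 stretch of HNRNPC, 33.0% to 40.9% for the HNRNPA1 exon, 76.2% to 85.1% for the HNRNPK exon, 30.4% to 42.4% and 47.6% to 54.8% for the HNRNPD exons of 57 and 147 bases, and the median MANE Select share was 8.34% to 11.2%.

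Division by length moved the protein-coding, decay and retained-intron shares to 76.2%, 11.8% and 11.9%, and same-version transcripts alone gave 74.9%, 10.4% and 14.6%. Per length, the included shares were 27.3% (HNRNPC), 18.0% (HNRNPA1), 24.3% and 37.2% (HNRNPD, 57 and 147 bases), the median MANE Select share was 3.54%, and 3 genes were above the median retained-intron share of all genes. Over same-version transcripts, a choice added after seeing the data, the included shares were 36.7% (HNRNPC), 0 (HNRNPA1), 100% (HNRNPK), 1.21% and 41.7% (HNRNPD), where the transcripts left out are those of another version. The 1.21% and the 41.7% also leave out HNRNPD-208, a same-version transcript with a coding exon of 57 bases but other junctions than MANE Select. Called pairs numbered 39, 41 and 34 with MANE Select lengths, protein-coding transcripts and no division by length. The count of genes lower in replicate 2 was 7 or 8 under the 3 alternatives tried, HNRNPD being level (0.00) with protein-coding transcripts alone. The same leading transcript was found in 8 to 10 genes. Depth limits HNRNPLL most, whose transcripts mostly had fewer than 100 counts.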
